A study of Mus musculus with 33 samples.

Results

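Fenofibrate and control diet were compared in mouse liver. The comparison rests on 22 of the 33 arrays of the series, the 12 whose titles name fenofibrate and the 10 whose titles name control, and it covers all 9005 genes that could be tested. Every mouse was a C57BL/6J male, 17 weeks old, that had eaten its diet for 2 weeks and was fasted during the day before the liver was taken. In the control diet 7% of energy came from a sunflower oil with much oleic acid. The fenofibrate diet held that oil in the same amount and 0.03% fenofibrate by weight, so both groups share the oil. The mice were housed 2 per cage, and the labels do not say which animals shared one. Each replicate is 1 mouse and 1 Affymetrix whole-genome expression array of whole-liver RNA. Values are log2 expression values made with GCRMA, a background correction and normalization for such arrays. Differences are fenofibrate minus control on that log2 scale, given ± the standard error of the fit, with n = 12 against n = 10 throughout. A gene was called when its limma p, adjusted by the Benjamini-Hochberg method over all 9005 genes, was under 0.05.

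Fenofibrate is a lipid-lowering drug whose active acid binds PPARα, a nuclear receptor that is abundant in hepatocytes. The receptor pairs with RXR on a direct repeat of a short half-site in DNA, and in rodent liver it is known for switching on fatty acid oxidation in mitochondria and peroxisomes. The hepatocyte is also the source of most plasma proteins, and many of its genes differ between male and female mice under the control of growth hormone.

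The arrays read as liver. Albumin (Alb) lay at 14.82 to 15.01 in the controls and at 14.84 to 15.02 on fenofibrate. Array medians over all probe sets ran from 2.90 to 2.97. Control replicates 1, 2 and 9 stood apart from the other 7 controls, with median correlations to their own diet of 0.972, 0.976 and 0.981 across genes, where every other array of the 22 reached 0.986 or more. Control replicate 9 deviated partly in the direction of the drug. Many results, though not all, are also given without control replicates 1, 2 and 9. Arrays with consecutive label numbers also tended to deviate together (median correlation of deviations 0.094, against -0.136 for other pairs of the same diet), so standard errors of a fit that treats arrays as independent can be too small. Probe sets of close relatives, such as members of the Cyp4a, Cyp2c, Acot, Mup and Serpina families, can bind each other's transcripts, which makes their single values uncertain. In whole liver, fewer cells of a type and less RNA per cell cannot be told apart.

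Fenofibrate changed a large part of the liver transcriptome, mostly by small amounts. Of the 9005 genes, 3676 (40.8%) were called, 1978 higher (22%) and 1698 lower (18.9%). The median difference over all genes was -0.0016, and the median size of a called change was 0.338, which is well under a doubling. At least a 2-fold change was called for 262 genes (2.91%), of which 157 rose (1.74%) and 105 fell (1.17%). Separation of the mice followed another order than size. All 12 fenofibrate arrays lay above all 10 control arrays for 322 genes (3.58%) and below them for 165 genes (1.83%). All 487 of these genes were called, and 165 of them changed by less than 0.5. In contrast, 134 of the 262 genes with at least a 2-fold change had groups that did not overlap, so many large changes came with overlap between mice. Without control replicates 1, 2 and 9 the calls came to 3776 genes, and the genes without overlap rose to 599 above and 433 below.

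Every fenofibrate mouse carried the response at close to full size. For each array, the control mean and the group difference were computed without that array. Its deviation from that mean was then expressed as a percentage of that difference, over the 262 genes with at least a 2-fold change. The median over these genes lay between 92.1% and 110.6% in the 12 fenofibrate mice, and 260 to 262 of the 262 genes deviated in the called direction in each of them. Since these genes were chosen on the same arrays, this describes the evenness of the response and is no test of it. Among the controls the value ran from -21.8% in replicate 2 to 13.6% in replicate 1 in 9 of the 10 mice. Control replicate 9 was the exception. It reached 37.0% and deviated in the direction of the drug for 218 of the 262 genes (83.2%).

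**Figure D1:**
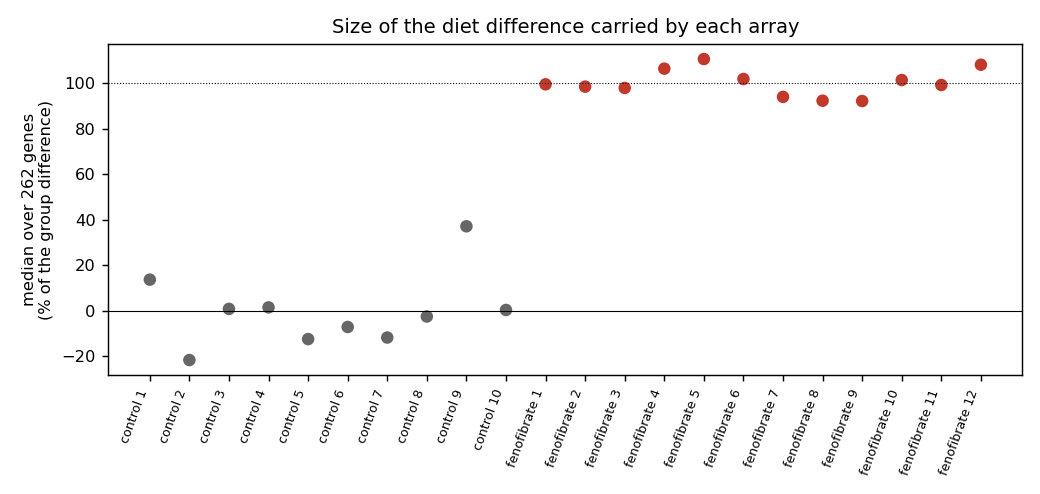
Median over 262 genes of each array's deviation from the control mean, as a percentage of the group difference (y axis), for the 10 control arrays (grey) and 12 fenofibrate arrays (red). Mean and difference leave out the array shown. The fenofibrate arrays sit between 92.1% and 110.6%, and control replicate 9 lies at 37.0%, above the other controls.

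Many of the widest gaps above the controls belonged to genes near the floor of the scale in control liver. Mogat1, a monoacylglycerol acyltransferase, lay at 2.26 to 3.39 (median 2.40) in the controls and at 7.96 to 9.80 (median 9.14) on fenofibrate. Its difference was 6.56 ± 0.17 (adjusted p = 9.05e-25), and its highest control was replicate 9. Cox6b2, a subunit of cytochrome c oxidase best known from testis, lay at 2.33 to 3.08 (median 2.67) and at 7.32 to 9.54 (median 8.60). The difference was 5.82 ± 0.18 (adjusted p = 3.68e-23), and the lowest fenofibrate array lay more than 4 above the highest control. Genes were kept when at least 10 arrays reached a value of 4, which no control of Mogat1 or Cox6b2 did. Both passed this filter through the fenofibrate arrays, so their place among the genes tested is no support of their rise. Krt23, a keratin, lay at 3.00 to 4.32 in the controls and at 8.50 to 9.90 on fenofibrate (5.63 ± 0.29, adjusted p = 1.13e-16). The controls of Krt23 would not have passed the filter alone either.

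Transporters and receptors made up much of the rest. Slc39a5, a zinc importer, lay at 2.21 to 3.22 (median 2.50) in the controls and at 5.25 to 7.18 (median 6.54) on fenofibrate, a difference of 3.94 ± 0.16 (adjusted p = 2.27e-19). It too passed the filter only through arrays of other diets than control. Serinc2, of a family of membrane proteins that handle serine, lay at 3.08 to 5.08 (median 3.48) and at 7.23 to 7.97 (median 7.54), a difference of 3.81 ± 0.19 (adjusted p = 7.89e-17). The controls of Serinc2 would not have passed the filter alone. Vldlr, a receptor for triglyceride-rich lipoproteins, lay at 3.22 to 7.47 in the controls, where replicate 9 was highest and the next was at 5.25, and at 9.86 to 10.87 on fenofibrate. The fatty acid transporter Slc27a1, the fatty acid translocase Cd36, the fatty acid hydroxylase Cyp4a31 and the lipoprotein lipase Lpl completed the 10 genes. None of the 10 overlapped between the groups. Control means under 4, where the background model shapes the values and folds are uncertain, were found for 30 of the 322 genes with all fenofibrate arrays above.

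Below the controls the widest gaps lay in genes that are well expressed in control liver. Slc22a7, an organic anion transporter of the hepatocyte's blood side, lay at 7.80 to 10.16 (median 8.62) in the controls and at 3.54 to 4.76 (median 4.12) on fenofibrate. It fell by 4.50 ± 0.26 (adjusted p = 1.30e-15). Sdr9c7, a short-chain dehydrogenase, lay at 7.54 to 8.44 and at 2.93 to 5.59, and fell by 3.39 ± 0.21 (adjusted p = 1.39e-14). Enho encodes the precursor of adropin, a peptide linked to energy balance. Its arrays lay at 6.42 to 8.48 (median 7.55) in the controls and at 3.37 to 4.92 (median 4.34) on fenofibrate. It fell by 3.19 ± 0.21 (adjusted p = 6.78e-14).

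Among the other genes with a wide gap below were several of narrow spread. Cyp4f14, a cytochrome P450 that hydroxylates leukotrienes and vitamin side chains, lay at 10.78 to 11.45 in the controls and at 8.73 to 9.59 on fenofibrate (-2.16 ± 0.10, adjusted p = 1.05e-17). Gulo, the last enzyme of vitamin C synthesis in mice, lay at 11.58 to 12.28 and at 10.15 to 10.69 (-1.53 ± 0.09, adjusted p = 1.30e-15). Pla1a, a phospholipase specific for phosphatidylserine, lay at 8.70 to 9.48 and at 6.95 to 7.89 (-1.63 ± 0.10, adjusted p = 4.40e-15). Gm2a, the lysosomal activator of ganglioside breakdown, changed by less than 1 (-0.90 ± 0.07) and still separated every mouse, with controls at 9.73 to 10.06 and fenofibrate arrays at 8.60 to 9.13. The complement gene C9, the retinol dehydrogenase relative Rdh16f2 and the surface antigen Ly6e also stood in this group of 10.

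**Figure D2:**
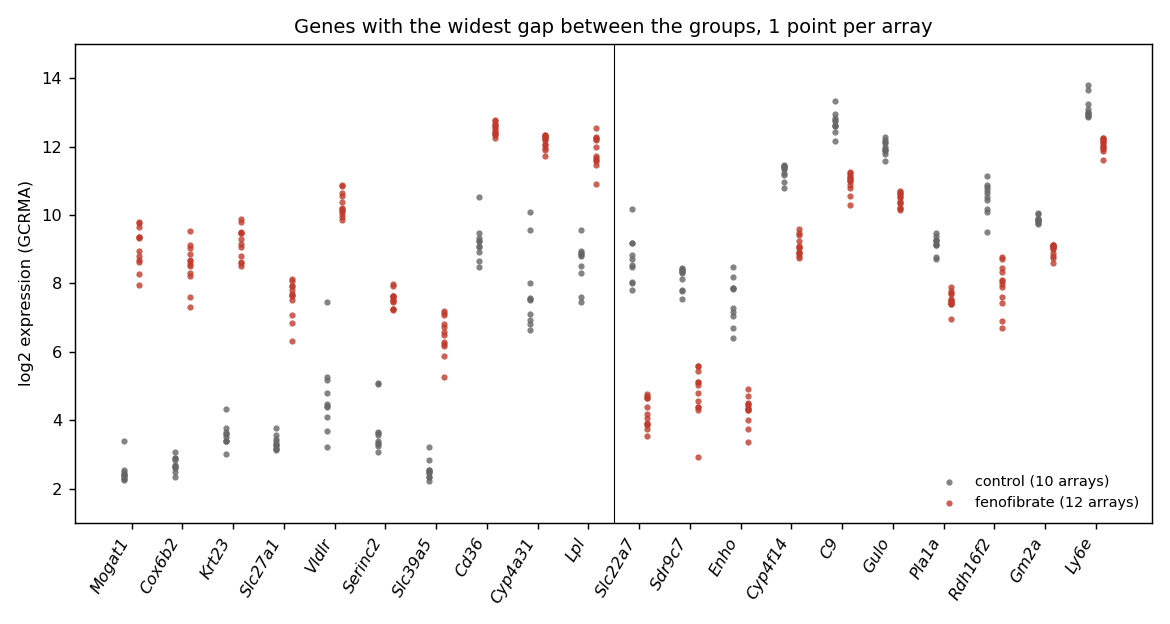
Log2 expression (y axis) on each of the 10 control arrays (grey) and 12 fenofibrate arrays (red) for the 10 genes with the widest gap above the controls (left of the line) and the 10 with the widest gap below (right). No gene shown overlaps between the groups, and most genes on the left start near the floor of the scale, as Mogat1 does at 2.26 to 3.39.

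To rank functions, 78 gene lists and 203 families of at least 6 genes that share a symbol root were ordered by their median difference. They are described by counts and medians, to be read beside the 22% higher, 18.9% lower and median of -0.0016 over all genes. Highest among genes past the filter were female-biased genes of mouse liver (1.37, a place held only with the filter, since their median with no filter was 0.46 and the thioesterases and both beta-oxidation lists then stood above it), acyl-CoA thioesterases (0.86), peroxisomal (0.66) and mitochondrial (0.63) beta-oxidation, fatty acid synthesis with NADPH supply (0.42), coenzyme A synthesis (0.34), keratins and desmosomes (0.32), and mitochondrial chaperones and proteases (0.29). The place of keratins and desmosomes also depended on the filter. With no filter their median was 0.16, under that of glycerophospholipid synthesis (0.25). Lowest were male-biased genes (-1.12), serpins of clade A (-0.59), the interferon response (-0.59), major urinary proteins (-0.54, but -1.09 with the mean of all probe sets), acute phase proteins (-0.50), complement (-0.49), bile acid synthesis (-0.35), and pericentral genes (-0.34). Without control replicates 1, 2 and 9 this order changed. Of the lists by function, only the male-biased one (-1.15) then lay below the circadian clock (-0.57, 9 of 15 lower and 1 higher). Sulfotransferases then stood at -0.52 and serpins of clade A at -0.33. With all arrays and no filter, 1 of 18 clock genes was lower, with a median of -0.16. By share called, the order began with ATP synthase (14 of 15) among the rises and with the interferon response (28 of 33) among the falls. Neither kept that place without control replicates 1, 2 and 9, where 9 of 15 and 23 of 33 were called, against 19 of 21 for mitochondrial beta-oxidation and 15 of 17 for male-biased genes. When the median over a list was taken in each array, all 12 fenofibrate arrays lay beyond all 10 controls for 20 of the 78 lists and 15 of the 203 families.

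**Figure D3:**
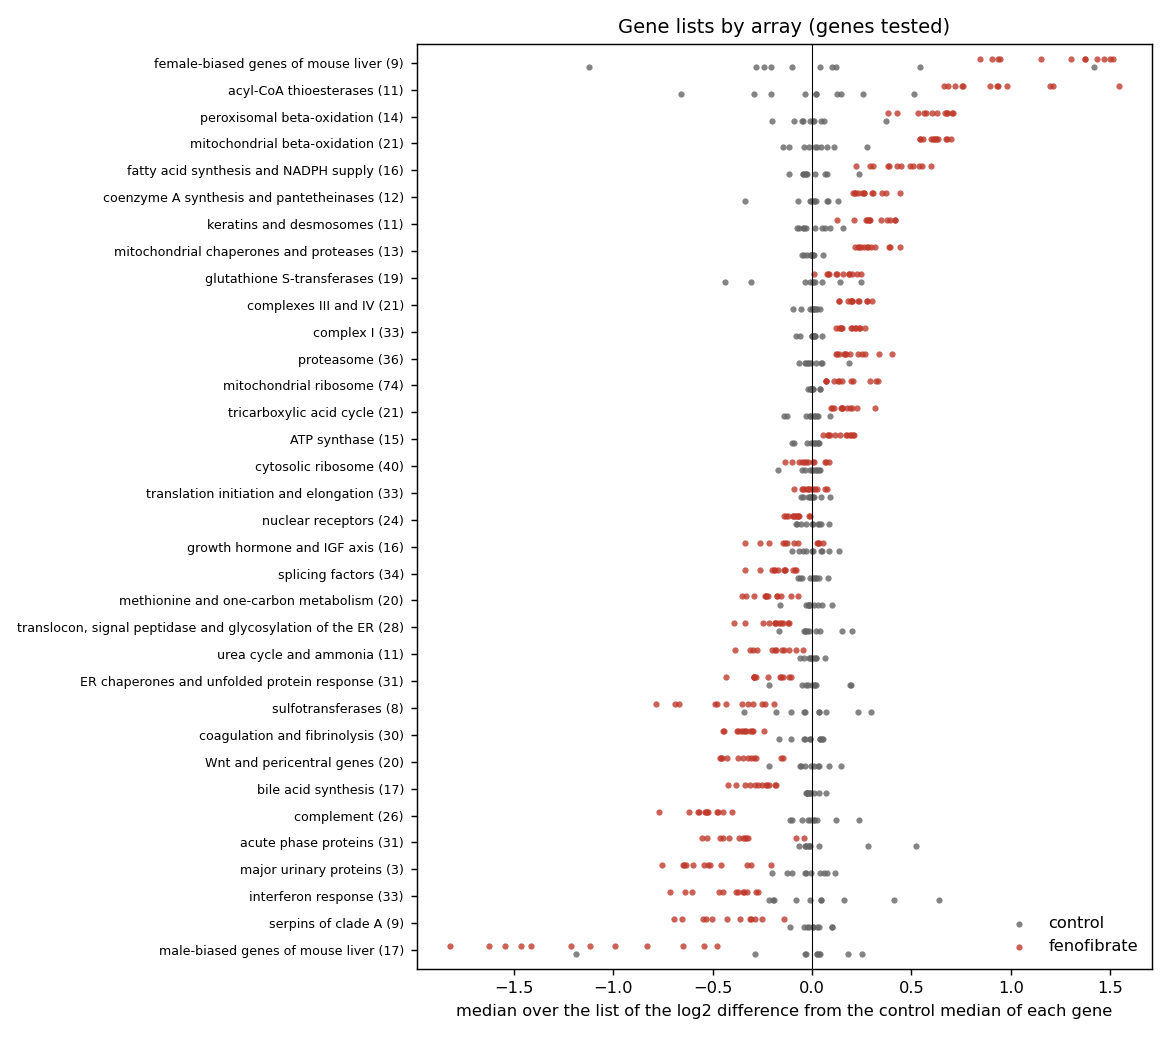
For each gene list (y axis, genes tested in brackets), the median over its genes of the log2 difference from each gene's control median (x axis), with 1 point for each of the 10 control arrays (grey) and 12 fenofibrate arrays (red). Complement lies below every control in all 12 fenofibrate arrays (-0.77 to -0.40 against -0.11 to 0.24), the cytosolic ribosome overlaps, and single controls reach far out in the lists of sex-biased genes.

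Genes that differ between male and female liver mostly moved in opposite directions in these male mice, and the male-biased list had the lowest median of the lists by function. Of 17 tested genes that are typically higher in males, 14 fell and 1 rose, with a median of -1.12. Hsd3b5, a hydroxysteroid dehydrogenase of male liver, lay at 10.84 or more in 9 controls and at 2.74 to 8.46 (median 3.72) on fenofibrate, and fell by 7.19 ± 0.68 (adjusted p = 2.41e-10). Slco1a1, an organic anion transporter, lay at 10.29 to 11.89 (median 11.64) in the controls and at 7.24 to 9.91 (median 9.15) on fenofibrate, without overlap (-2.50 ± 0.21, adjusted p = 1.36e-11). C8b, a subunit of the complement attack complex, lay at 10.54 to 12.32 and at 9.13 to 10.65 (-1.87 ± 0.18, adjusted p = 4.87e-10). Ugt2b1, a glucuronosyltransferase, fell by 1.12 ± 0.10 (adjusted p = 4.84e-11), again without overlap. The member that rose was the fatty acid hydroxylase Cyp4a12a (1.97, named after its value was seen), a relative of known PPARα targets. Elovl3, a fatty acid elongase, did not pass (0.03 ± 0.25).

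Of the genes typically higher in females, 9 of 22 on the array passed the filter on low values, and 6 of these rose and 0 fell. With no filter, 12 of the 22 rose and 1 fell, with a median of 0.46. Cyp2b9, a cytochrome P450 of female liver, lay at 2.71 or less in 9 controls and at 7.53 to 11.89 (median 10.30) on fenofibrate (7.33 ± 0.81, adjusted p = 6.34e-09). It passed the filter through the fenofibrate arrays, so its place among the genes tested is no support of its rise. Gsta2, a glutathione transferase, lay at 8.45 to 10.38 and at 9.96 to 11.40 (1.26 ± 0.22, adjusted p = 2.04e-05). Acot3 and Acot4, both peroxisomal thioesterases, rose by 3.53 ± 0.63 and 1.81 ± 0.26, and they also stand in the thioesterase list. Fmo2 (0.40 ± 0.35) and Cyp17a1 (0.41 ± 0.28), a steroid hydroxylase, did not pass. Cyp17a1 passed without control replicates 1, 2 and 9 (0.75, adjusted p = 0.0144) and with array weights (0.65, adjusted p = 0.0319).

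Control replicate 9 carried much of the same pattern without the drug. It had the lowest Hsd3b5 of the controls (5.34) and the highest Cyp2b9 (9.69), both inside the range of the fenofibrate arrays. Its median over the male-biased list was -1.19, where the next control was at -0.29 and the fenofibrate arrays ran from -1.82 to -0.48. Over the female-biased list it was 1.42, against 0.85 to 1.51 on fenofibrate. Without control replicates 1, 2 and 9, 15 male-biased genes fell and 7 female-biased genes rose. The cause of the deviation of this mouse was not tested.

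**Figure D4:**
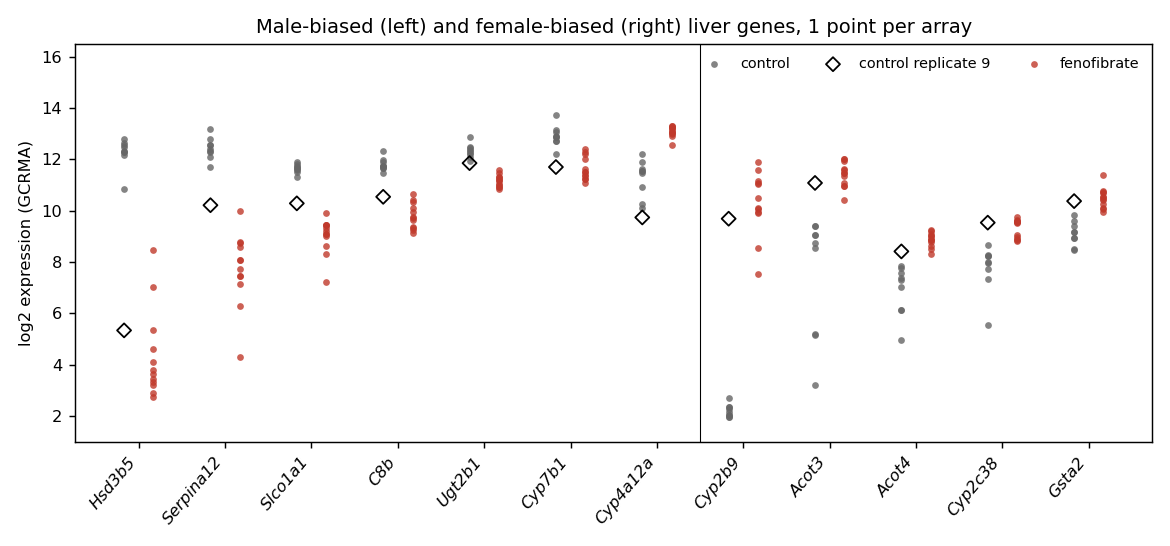
Log2 expression (y axis) of 7 male-biased genes (left of the line) and 5 female-biased genes (right) on the control arrays (grey), on control replicate 9 (open diamonds) and on the fenofibrate arrays (red). Control replicate 9 lies with the fenofibrate arrays for Hsd3b5 (5.34) and Cyp2b9 (9.69), and Cyp4a12a is the male-biased gene that rose.

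Growth hormone is known to control many sex differences of mouse liver, but its part in the changes above was not tested. Of 16 genes of the growth hormone and IGF axis, 6 fell and 2 rose. Igf1, the growth factor the liver secretes in response to the hormone, lay at 12.61 to 12.89 (median 12.70) in the controls and at 11.72 to 12.46 (median 12.29) on fenofibrate. It fell by 0.49 ± 0.07 (adjusted p = 2.51e-07) without overlap. The growth hormone receptor Ghr lay at 12.21 to 12.91 and at 11.96 to 12.33, with overlap, and also fell by 0.49 ± 0.07 (adjusted p = 2.52e-07). Among the binding proteins of IGF, Igfbp4 fell by 0.20 ± 0.04 and Igfbp2 rose by 0.34 ± 0.07. Socs2, a feedback inhibitor of the hormone's signal, was widely scattered in both groups (6.43 to 10.57 and 7.08 to 9.73) and did not pass (adjusted p = 0.55). The median of this list was small (-0.13) and moved with single arrays, to -0.01 without control replicate 10 and to -0.02 without control replicate 1 or fenofibrate replicate 5. Without the arrays whose label carries a letter A it was -0.22, and on leaving out single arrays the count of rises was 1 or 2.

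Complement genes, most of whose products are plasma proteins, were lower. Of 26 tested complement genes, 22 fell and 0 rose, and 13 of them had no overlap between the groups. Complement is a cascade of plasma proteases and pore-forming proteins that the liver supplies. C9, which forms the membrane pore, lay at 12.17 to 13.33 (median 12.69) in the controls and at 10.30 to 11.25 (median 11.02) on fenofibrate, and fell by 1.76 ± 0.12 (adjusted p = 2.95e-13). C4bp, an inhibitor of the cascade, lay at 12.49 to 13.12 and at 11.48 to 11.93 (-1.01 ± 0.06, adjusted p = 2.33e-14). The proteases C1s1, at 11.44 to 11.87 in the controls and 10.72 to 11.15 on fenofibrate, and C1ra fell by 0.86 ± 0.06 and 0.76 ± 0.05. C1qa (-0.16 ± 0.11) and C1qb (-0.28 ± 0.14), which macrophages make, did not pass. Without control replicates 1, 2 and 9, 20 complement genes fell.

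Coagulation followed with 25 of 30 genes lower, 0 higher and 10 without overlap, at a median of -0.32. F7, the protease that starts clotting with tissue factor, lay at 9.87 to 10.52 (median 10.31) in the controls and at 9.07 to 9.59 (median 9.25) on fenofibrate. It fell by 1.00 ± 0.07 (adjusted p = 1.41e-12). Inhibitors fell with the clotting factors. Serpinf2, the inhibitor of plasmin, lay at 12.65 to 13.08 and at 12.07 to 12.37 (-0.66 ± 0.06, adjusted p = 2.07e-11), and Serpind1, an inhibitor of thrombin, fell by 0.46 ± 0.05. F10, the factor that activates prothrombin, lay at 12.26 to 12.48 and at 11.88 to 12.12 (-0.39 ± 0.04, adjusted p = 9.75e-10). The cofactor Pros1 (0.03 ± 0.08) and the membrane protease Hpn (0.01 ± 0.04) did not pass. The count of 25 was the same without control replicates 1, 2 and 9, and 17 then had no overlap.

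Other plasma proteins split by member. Of 31 acute phase and carrier proteins, 19 fell and 1 rose, and 6 lay below without overlap. Mug1, a broad protease inhibitor, lay at 13.62 to 13.95 in the controls and at 13.06 to 13.35 on fenofibrate (-0.61 ± 0.04, adjusted p = 1.03e-13). Itih1, Itih2 and Fetub, which are also plasma protease inhibitors or their relatives, fell by 0.71 ± 0.05, 0.56 ± 0.04 and 0.79 ± 0.06 without overlap. The brightest members did not pass, Alb at -0.02 ± 0.03 and the thyroxine carrier Ttr at -0.04 ± 0.03; values near the top of the scale can be compressed. The list as a whole was high in control replicate 2 (0.52), and without control replicates 1, 2 and 9 the counts were 17 lower and 3 higher.

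Serpins of clade A, a family of secreted inhibitors, differed widely among themselves. Of 9 tested members, 7 fell and 1 rose. Serpina12, known as vaspin, lay at 10.21 to 13.20 (median 12.35) in the controls and at 4.28 to 10.01 (median 7.92) on fenofibrate, and fell by 4.49 ± 0.45 (adjusted p = 9.04e-10). Serpina11 lay at 10.14 to 10.90 and at 8.96 to 9.69 (-1.26 ± 0.09, adjusted p = 1.12e-12). Serpina1c, an alpha-1-antitrypsin gene and one of the brightest on the array, lay at 14.13 to 14.37 and at 13.90 to 14.16 (-0.25 ± 0.04, adjusted p = 8.22e-06). Serpina6, the carrier of corticosteroids, did not pass (-0.00 ± 0.20). The list median was -0.59 with all arrays and -0.33 without control replicates 1, 2 and 9. Of 3 tested major urinary proteins, carriers of scent molecules in male urine, Mup3 and Mup10 fell by 0.54 ± 0.04 and 1.44 ± 0.30, and Mup5 did not pass (-0.14 ± 0.06, adjusted p = 0.0521). Mup5 passed on leaving out fenofibrate replicate 3 (adjusted p = 0.0145), 11 (0.0459) or 12 (0.037) or control replicate 4 (0.0234) or 10 (0.0302). Mup5 also passed under a filter at a log2 value of 6 (adjusted p = 0.0446) and with arrays centred on their median (0.0413). The same held with quantile normalization past the filter (0.034) and with the replicate block (0.033).

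The upstream sequences of these genes were searched for the repeat that PPARα with RXR binds. The receptor HNF4α, which drives many plasma protein genes, recognises a repeat of the same layout. In the 250 bases before the start, from RefSeq on GRCm38.p6, AGGNCANAGGNCA was sought on both strands, and 7385 tested genes had a matched promoter. A match was present in 28 of these (0.379%), in 0 of the 265 genes with all fenofibrate arrays above, and in 4 of the 132 with all below (3.03%). Over all RefSeq promoters of the table the share was 0.338%. Among called genes it was present in 5 of 1636 higher (0.306%) and in 10 of 1373 lower (0.728%), and among uncalled genes in 13 of 4376 (0.297%). Matches are this rare, so a count of 0 in 265 genes says little. The stricter AGGTCANAGGTCA matched in 2 of the 7385. These 5 windows show the 4 genes without overlap below the controls and, for comparison, the fatty acid binding protein Fabp1, a classical PPARα target named after its values were seen. Fabp1 is near the top of the scale, at 15.36 to 15.52 in the controls and 15.40 to 15.63 on fenofibrate. It rose by 0.10 ± 0.03 (adjusted p = 0.016), but the call was lost with quantile normalization past the filter (0.03, adjusted p = 0.50), with arrays centred on their median (0.08, adjusted p = 0.134), with the replicate block (adjusted p = 0.052) and without control replicates 1, 2 and 9 (adjusted p = 0.051). Capitals mark the match.
F7: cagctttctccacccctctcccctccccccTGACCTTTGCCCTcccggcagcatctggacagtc
Bco1: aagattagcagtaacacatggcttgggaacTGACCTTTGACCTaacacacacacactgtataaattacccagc
Cyp2d10: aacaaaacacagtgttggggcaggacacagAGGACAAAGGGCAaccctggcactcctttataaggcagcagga
Entpd8: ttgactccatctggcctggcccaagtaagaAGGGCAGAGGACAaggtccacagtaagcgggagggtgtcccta
Fabp1: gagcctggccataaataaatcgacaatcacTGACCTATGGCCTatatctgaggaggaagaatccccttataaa
The window of F7 is chr8:13025970-13026033 on the plus strand, with the match from -34 to -22 relative to the start. That of Bco1, the enzyme that splits carotene, is chr8:117095779-117095851 on the plus strand (-56 to -44), and Bco1 fell by 1.11 ± 0.14. Cyp2d10 lies on the minus strand at chr15:82407209-82407281 (-57 to -45), and it fell by 0.32 ± 0.04. Its relatives Cyp2d9 (-0.19, not called) and Cyp2d40 (-0.98, called lower), named after their values were seen, hold the same matched letters. Entpd8, an ectonucleotidase, lies on the plus strand at chr2:25080203-25080275 (-90 to -78), and it fell by 0.90 ± 0.08. The window of Fabp1 is chr6:71199782-71199854 on the plus strand (-67 to -55). In F7, Bco1 and Fabp1 the repeat reads on the opposite strand to the gene. A match is a description of letters and does not show binding, and its absence says only that these letters are not in that window.

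Interferon-stimulated genes fell in most cases. Of 33 tested, 28 fell and 0 rose, with a median of -0.59, and 5 had no overlap. Ifitm3, which blocks virus entry and is bright in liver, lay at 13.49 to 13.81 (median 13.65) in the controls and at 12.55 to 13.08 (median 12.83) on fenofibrate. It fell by 0.84 ± 0.06 (adjusted p = 1.85e-13). Ifih1, a sensor of viral RNA, lay at 8.70 to 9.29 and at 7.93 to 8.65 (-0.68 ± 0.09, adjusted p = 1.32e-07). Oas1a, an enzyme that activates RNA decay, lay at 4.74 to 5.99 and at 4.02 to 4.64 (-0.87 ± 0.12, adjusted p = 8.03e-07). Bst2, a tether of budding viruses, did not pass (0.03 ± 0.07), nor did the GTPase Irgm2 (-0.07 ± 0.12). The controls differed among themselves, and replicate 9 stood highest in this list at 0.64. Without control replicates 1, 2 and 9 the fall was called for 23 genes, with a median of -0.46.

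The factors that drive this response moved with it. Of 7 interferon regulatory factors, 6 fell. Irf7, which amplifies the response, lay at 5.19 to 6.41 (median 5.68) in the controls and at 4.30 to 5.07 (median 4.65) on fenofibrate, and fell by 1.05 ± 0.11 (adjusted p = 2.67e-09). Irf5 lay at 4.76 to 6.81 and at 4.23 to 5.17 (-1.36 ± 0.18, adjusted p = 1.75e-07), and Irf3 and Irf9 fell by 0.33 ± 0.05 and 0.46 ± 0.11. Irf8, a factor of macrophages and dendritic cells, did not pass (0.03 ± 0.12). Among 26 Trim genes, many of which act in antiviral defence, 14 fell and 3 rose, led by Trim30d (-1.01 ± 0.12, adjusted p = 1.79e-08) and Trim30a (-0.65 ± 0.12). Of 16 Kupffer cell markers, 3 fell and 0 rose, and their summed level ran from 13.67 to 14.26 in the controls and from 13.27 to 14.11 on fenofibrate. The part of the macrophages in the fall of the interferon genes was not tested.

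The machinery that folds and exports secreted proteins was lower too, by small amounts. Of 28 genes of the translocon, signal peptidase and glycosylation of the endoplasmic reticulum, 18 fell and 3 rose. Tram1, a helper of the translocon, lay at 11.28 to 11.80 (median 11.60) in the controls and at 10.72 to 11.14 (median 10.96) on fenofibrate. It fell by 0.63 ± 0.05 (adjusted p = 8.27e-12). Ssr4 (-0.43 ± 0.05, adjusted p = 8.13e-09), the channel subunit Sec61a1 (-0.52 ± 0.07, adjusted p = 1.02e-06) and Rpn2 (-0.37 ± 0.05, adjusted p = 2.73e-07) fell as well, whereas Sec62 and Spcs1 did not pass. Of 31 chaperones and genes of the unfolded protein response, 18 fell and 1 rose. Xbp1, the transcription factor that expands the secretory pathway, lay at 11.79 to 12.39 and at 11.22 to 11.95 (-0.55 ± 0.07, adjusted p = 1.68e-07), and its activating enzyme Ern1 at 8.86 to 9.45 and 7.97 to 8.79 (-0.71 ± 0.10, adjusted p = 1.29e-06). Calr and P4hb, which fold proteins in the lumen, fell by 0.43 ± 0.08 and 0.26 ± 0.04. In Tram1, Ssr4 and Xbp1 control replicate 9 was the lowest control.

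Metabolic functions of the hepatocyte outside lipid oxidation fell in part. In the urea cycle, which disposes of ammonia, 7 of 11 genes fell and 0 rose. Cps1, its entry enzyme, lay at 13.59 to 13.70 in the controls and at 13.10 to 13.36 on fenofibrate (-0.45 ± 0.04, adjusted p = 4.81e-12), a small fall with no overlap. Otc and Asl fell by 0.54 ± 0.07 and 0.53 ± 0.08, and the glutamine synthetase Glul did not pass (-0.04 ± 0.05). In methionine and one-carbon metabolism, 12 of 20 genes fell and 2 rose. Gnmt, which consumes methyl groups, lay at 13.64 to 13.87 and at 13.03 to 13.48 (-0.50 ± 0.05, adjusted p = 1.89e-10), and Cbs, which leads to cysteine, at 11.18 to 11.64 and 10.04 to 10.98 (-0.66 ± 0.08, adjusted p = 5.43e-08). Chdh, which oxidises choline, rose by 0.53 ± 0.07 (adjusted p = 1.06e-07), and the main methionine adenosyltransferase Mat1a did not pass.

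Bile acid synthesis and genes of the zone around the central vein were also among the lowest lists. Of 17 bile acid genes, 10 fell and 1 rose, and without control replicates 1, 2 and 9 the counts were 9 and 3. Leaving out control replicate 3, 8 or 9 or fenofibrate replicate 1 or 11 gave 2 rises. Akr1c6 (-0.49 ± 0.04, adjusted p = 4.84e-11) and Cyp27a1 (-0.35 ± 0.05, adjusted p = 9.12e-07), which acts on the sterol side chain, changed little but evenly, and Baat, which couples bile acids to taurine, fell by 0.42 ± 0.06. Cyp7a1, the rate-limiting enzyme, was scattered in both groups, at 9.45 to 12.18 (median 11.10) and at 8.07 to 12.12 (median 9.76). It fell by 1.16 ± 0.43 (adjusted p = 0.0294), and this call rests on single mice. It was lost on leaving out control replicate 1 (adjusted p = 0.0524), control replicate 9 (0.0569), fenofibrate replicate 5 (0.0584) or fenofibrate replicate 6 (0.0552), and on leaving out control replicates 1, 2 and 9 together (0.0931), with the replicate block (0.0529) and with array weights (0.092). Of 20 pericentral genes, 10 fell and 1 rose. Cyp1a2, an enzyme of drug oxidation, lay at 11.30 to 12.80 and at 10.53 to 11.39 (-1.14 ± 0.13, adjusted p = 1.96e-08), and Lect2 fell by 0.90 ± 0.10, whereas Aldh1a1 rose by 0.38 ± 0.05. Cyp2e1 (-0.02 ± 0.03) and Glul, both defining genes of that zone, did not pass.

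Drug-metabolising families went in different directions. The Cyp2c family, enzymes of fatty acid and drug oxidation, had the lowest median of the 203 families (-1.09), with 6 of 8 members lower and 1 higher. Cyp2c70, at 12.50 to 13.43 in the controls and 11.22 to 12.01 on fenofibrate, fell by 1.41 ± 0.11 (adjusted p = 3.70e-12), and Cyp2c54, at 9.62 to 11.77 and 6.71 to 9.64, fell by 2.65 ± 0.28 (adjusted p = 1.67e-09). Cyp2c50 lay at 12.04 to 13.08 and at 10.46 to 11.98 (-1.44 ± 0.13, adjusted p = 1.27e-10). Cyp2c29 did not pass (-0.20 ± 0.09), but passed without control replicate 1 (adjusted p = 0.0195) or fenofibrate replicate 7 (0.0369). Cyp2c29 also passed without control replicates 1, 2 and 9 (adjusted p = 0.0202) and without the arrays whose label carries a letter A (0.00648). The same held with array weights (0.00963) and with the replicate block (0.0309). In the Cyp2d family 5 of 6 fell, by 0.67 ± 0.07 in Cyp2d13 and by 0.14 ± 0.04 in Cyp2d26. Of 8 sulfotransferase genes, 4 fell and 0 rose, with Sult1a1 at 12.45 to 13.05 and 11.14 to 12.44 (-1.03 ± 0.14, adjusted p = 4.81e-07). Sulfotransferases fell in 5 genes, with a median of -0.52 in place of -0.32, without control replicates 1, 2 and 9.

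Glutathione S-transferases leaned the other way, with 10 of 19 higher and 2 lower. The counts were 8 and 4 without control replicates 1, 2 and 9. Gstm4 lay at 8.47 to 9.27 (median 8.91) in the controls and at 9.72 to 10.68 (median 10.11) on fenofibrate, a rise of 1.22 ± 0.11 (adjusted p = 3.55e-11). Gstt2 lay at 9.36 to 10.99 and at 11.42 to 12.02 (1.18 ± 0.13, adjusted p = 8.45e-09), again without overlap. Gstk1, the form found in mitochondria and peroxisomes, rose by 0.68 ± 0.07. The brightest members, Mgst1 (0.03 ± 0.03) and Gsta3 (-0.07 ± 0.08), did not pass. Mgst1 passed with quantile normalization past the filter (0.08, adjusted p = 0.038). Of 24 nuclear receptors, 5 fell and 3 rose, and 8 fell without control replicates 1, 2 and 9. Ppara, the receptor of the drug, lay at 11.75 to 12.53 and at 11.90 to 12.50 and did not pass (0.01 ± 0.08). Esr1, the estrogen receptor, lay at 6.57 to 8.65 and at 5.58 to 6.67 (-1.38 ± 0.23, adjusted p = 1.25e-05), and the bile acid receptor Nr1h4 fell by 0.35 ± 0.07.

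Genes of the respiratory chain and of mitochondrial protein supply mostly rose, by small amounts except for Cox6b2. Mitochondrial carriers stood near the share over all genes, with 8 of 31 higher and 5 lower. Of 33 complex I genes, 26 rose and 1 fell, with a median of 0.20, and 12 of them separated all mice. Ndufab1, a carrier protein that serves complex I and mitochondrial fatty acid synthesis, lay at 11.94 to 12.25 (median 12.12) in the controls and at 12.69 to 12.96 (median 12.85) on fenofibrate. It rose by 0.72 ± 0.04 (adjusted p = 3.07e-15). The accessory subunits Ndufb3 (10.73 to 10.94 against 11.10 to 11.46), Ndufc1 and Ndufa5 rose by 0.43 ± 0.05, 0.38 ± 0.04 and 0.33 ± 0.04 without overlap. Every one of the 9 tested Ndufb genes rose. Of 21 genes of complexes III and IV, 18 rose and 0 fell, with the core subunit Uqcrc2 at 12.14 to 12.46 and 12.56 to 12.80 (0.40 ± 0.04, adjusted p = 1.66e-09). Of 15 ATP synthase genes, 14 rose, by a median of 0.14; without control replicates 1, 2 and 9 the count was 9.

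The supply of mitochondrial proteins moved in the same direction. Of 74 mitochondrial ribosomal genes, 43 rose and 1 fell, at a median of 0.18. Mrpl45 lay at 7.03 to 7.50 (median 7.18) in the controls and at 7.72 to 8.47 (median 8.07) on fenofibrate (0.84 ± 0.07, adjusted p = 3.79e-11). Among 13 mitochondrial chaperones and proteases, 10 rose and 0 fell. The partner chaperones Hspd1, at 12.66 to 12.97 and 12.99 to 13.31, and Hspe1 rose by 0.38 ± 0.05 and 0.56 ± 0.06, and the prohibitin Phb2 by 0.34 ± 0.04. In the tricarboxylic acid cycle 14 of 21 genes rose and 0 fell. Suclg1 lay at 11.61 to 11.91 and at 12.01 to 12.34 (0.42 ± 0.04, adjusted p = 1.24e-09), and Idh2, which makes NADPH in mitochondria, at 8.22 to 9.27 and 9.46 to 9.92 (0.73 ± 0.09, adjusted p = 7.08e-08). Fumarase Fh1 (-0.16 ± 0.08, but adjusted p = 0.0393 without control replicate 6) and the cytosolic Mdh1 (0.00 ± 0.06) did not pass.

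Protein turnover and synthesis outside mitochondria differed from each other. The proteasome, which breaks down tagged proteins, had 27 of 36 genes higher and 0 lower, with a median of 0.20. That list leaves out the catalytic subunits of the immunoproteasome, of which Psmb8 (-0.74 ± 0.11) and Psmb10 (-0.44 ± 0.09), named after their values were seen, fell, while Psmb9 (-0.27 ± 0.19) did not pass. Psmb5, a catalytic subunit, lay at 10.96 to 11.29 (median 11.03) in the controls and at 11.34 to 11.71 (median 11.51) on fenofibrate (0.46 ± 0.05, adjusted p = 9.47e-10). Psma7, at 10.45 to 10.72 and 10.94 to 11.43, rose by 0.46 ± 0.05, and all 7 tested Psma genes rose. Control replicate 1 was the highest control for this list (0.19), inside the range of the fenofibrate arrays (0.12 to 0.40). Of 40 cytosolic ribosomal genes, by contrast, 4 rose and 2 fell, with a median of -0.02, and without control replicates 1, 2 and 9 the counts were 2 and 8. Without control replicate 9 alone, 4 fell. Of 33 translation factors, 4 rose and 1 fell. Eef1a1 lay at 14.18 to 14.32 and at 14.16 to 14.32 (-0.02 ± 0.03). Splicing factors leaned lower, with 18 of 34 lower and 4 higher (2 higher without control replicate 8), led by Srsf3 (-0.53 ± 0.09, adjusted p = 7.57e-06) and Prpf8 (-0.25 ± 0.04, adjusted p = 1.14e-05).

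Lists of lipid metabolism are described here by their evenness. All 12 fenofibrate arrays lay beyond the controls in the medians of mitochondrial beta-oxidation (0.54 to 0.70, with controls up to 0.28 in replicate 9), where 13 of 21 genes separated all mice, and of peroxisomal beta-oxidation (0.38 to 0.71, with controls up to 0.37 in replicate 9). Decr1, which handles unsaturated fatty acids, lay at 11.60 to 12.14 and at 12.84 to 13.04, and Acadvl, the dehydrogenase of very long chains, at 11.85 to 12.09 and 12.44 to 12.74. Among 12 genes of coenzyme A synthesis and pantetheine recycling, 6 rose and 1 fell. Ppcs, an enzyme of coenzyme A synthesis, lay at 8.25 to 8.75 and at 9.03 to 9.71 (0.83 ± 0.07, adjusted p = 4.57e-11), and Coasy, which completes the molecule, rose by 0.39 ± 0.04 (adjusted p = 2.32e-08). Genes that build fatty acids or supply NADPH rose in 12 of 16 cases, and 0 fell, with the malic enzyme Me1 at 11.45 to 12.44 and 12.95 to 13.42.

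Families ranked by symbol root added further groups. The highest medians were those of Acot thioesterases (1.11, 9 of 10 higher), Slc16a monocarboxylate transporters (0.69, 5 of 9), Fabp fatty acid binding proteins (0.51, 4 of 6), Mcm helicase proteins (0.50, 4 of 7), Hsd17b dehydrogenases (0.43, 6 of 8), Chchd proteins of the mitochondrial intermembrane space (0.40, 5 of 7), Abcb transporters (0.34, 4 of 6) and Psmd proteasome subunits (0.28, 9 of 14). Without control replicates 1, 2 and 9 the Hsd17b median was 0.33, with 4 of 8 higher. The Kctd family (0.41, 4 of 7 higher) then stood above Hsd17b and above Abcb (0.29). Slc16a13 lay at 2.40 to 3.87 in the controls and at 4.07 to 5.74 on fenofibrate (1.93 ± 0.18, adjusted p = 1.13e-10), and Slc16a7 at 7.80 to 9.61 and 9.59 to 10.10 (0.88 ± 0.17, adjusted p = 7.66e-05). Fabp3, the heart form, lay at 2.62 to 3.13 and at 3.45 to 9.52 (median 5.89), separated from the controls but spread over more than 6 log2 units. No control of Slc16a13 or Fabp3 reached 4, so both passed the filter through arrays of other diets. Their presence among the genes tested is therefore no support of the rise of their families. Hsd17b11, a protein of lipid droplets, lay at 11.72 to 12.61 and at 13.46 to 13.88 (1.42 ± 0.08, adjusted p = 4.38e-16). The Mcm rise rests on dim genes such as Mcm4 (3.55 to 4.34 and 4.29 to 5.96). Under a filter at a log2 value of 6, which 2 Mcm genes passed, the median became -0.26, and that of the 5 Fabp genes that passed became 0.10.

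Other families held members that changed unequally. Of 7 annexins, calcium-dependent binders of membranes, 4 rose, all without overlap, and 1 fell. The one that fell, Anxa3 (-0.26 ± 0.09), was named after its value was seen, and the call was lost without control replicates 1, 2 and 9 (adjusted p = 0.0908), without the 5 arrays whose label number carries the letter A (0.0567) and with the replicate block (0.0521). Anxa2 lay at 6.82 to 7.89 (median 7.32) in the controls and at 8.59 to 9.82 (median 9.11) on fenofibrate (1.82 ± 0.16, adjusted p = 2.36e-11). Anxa5 and Anxa7 rose by 0.55 ± 0.06 and 0.43 ± 0.04, and Anxa1 and Anxa6 did not pass. Of 11 keratin and desmosome genes, 6 rose and 0 fell; beside Krt23, Krt8 of hepatocyte filaments rose by 0.57 ± 0.12 and Dsp by 0.47 ± 0.10, whereas Krt18, the partner of Krt8, did not pass (0.17 ± 0.12), but passed without control replicate 2 (0.27, adjusted p = 0.0352), without control replicates 1, 2 and 9 (0.27, adjusted p = 0.0295) and with array weights (0.25, adjusted p = 0.0307). Besides Cyp2c, Serpina, Irf and Cyp2d, the lowest families were carbonic anhydrases (Car, -0.50, 4 of 6 lower), Abca transporters (-0.28, 4 of 6), Slc30a zinc exporters (-0.26, 3 of 7) and Cbx chromatin proteins (-0.25, 3 of 6). The Slc30a median was -0.11 with the mean of all probe sets and -0.15 without control replicates 1, 2 and 9. Without these 3 mice the Akr1c family (-0.32, 3 of 6 lower) stood below Slc30a, and the Abca median was -0.42. Car2 opposed its family, at 3.36 to 4.40 in the controls and 5.21 to 6.04 on fenofibrate (1.84 ± 0.12, adjusted p = 2.32e-14), while Car3, bright in both groups, fell by 0.56 ± 0.10. In the Car median control replicate 1 was lowest at -0.79, inside the fenofibrate range.

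Among the genes that are brightest in control liver, falls outnumbered rises. Of the 300 brightest by control mean, 125 (41.7%) fell and 68 (22.7%) rose, and of the first 100, 48 fell and 15 rose. The choice of ranking matters, since a gene that falls ranks higher by its control mean. Ranked by the fenofibrate mean, 84 of the first 300 fell and 108 rose, and ranked by the mean of both groups 105 fell and 85 rose, with 42 and 20 among the first 100. In each of the rankings the share called was higher among the first 300 than among the genes below rank 3000. Bright genes with the largest falls were mainly secretory or drug-metabolising. Hsd11b1, which regenerates active glucocorticoid, lay at 12.89 to 13.27 in the controls and at 11.65 to 12.34 on fenofibrate (-1.14 ± 0.07, adjusted p = 5.43e-14). Apoa4, an apolipoprotein, fell by 1.22 ± 0.23 with overlap (11.64 to 13.96 and 10.73 to 12.52), Cyp7b1, an oxysterol hydroxylase, by 1.14 ± 0.20, and C8a by 1.21 ± 0.11.

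Rises among the 300 brightest were led by Retsat, a retinol saturase, which lay at 12.04 to 13.43 (median 12.55) in the controls and at 13.96 to 14.32 (median 14.14) on fenofibrate. It rose by 1.53 ± 0.12 (adjusted p = 1.89e-12). Creg1, a secreted glycoprotein, lay at 12.60 to 13.22 and at 13.48 to 13.86 (0.77 ± 0.06, adjusted p = 2.79e-12). Cd1d1, which presents lipids to T cells, lay at 12.12 to 12.82 and at 12.77 to 13.13, with overlap (0.51 ± 0.06, adjusted p = 3.74e-09). The others were enzymes of fatty acids, namely Acaa1b, Hadhb, Acsl5, Acat1, Fads2 and the carboxylesterase Ces1d, and Abcd3, the transporter that brings fatty acids into peroxisomes. Abcd3 lay at 13.18 to 13.68 and at 13.96 to 14.22 (0.58 ± 0.05, adjusted p = 1.64e-11).

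**Figure D5:**
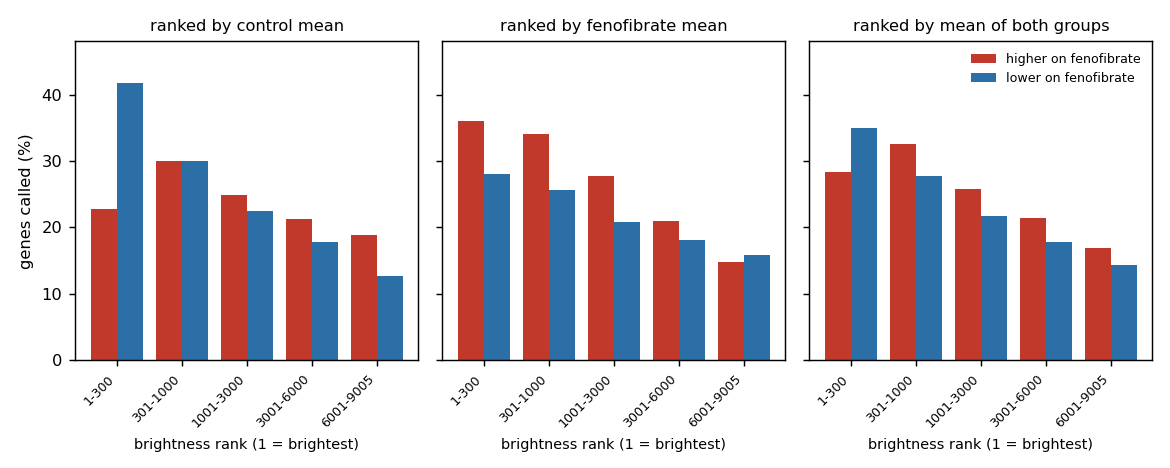
Percentage of genes called higher (red) and lower (blue) on fenofibrate (y axis, from 0) by brightness rank (x axis, rank 1 brightest), with genes ranked by the control mean, the fenofibrate mean or the mean of both. Falls outnumber rises in the first 300 genes by control mean (41.7% against 22.7%), and the order turns when genes are ranked by the fenofibrate mean.

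The spread between mice differed between the groups for some genes. Of 4278 genes with a mean of at least 8, the SD was larger in the controls for 61.1%, with medians of 0.156 in the controls and 0.140 on fenofibrate. Without control replicates 1, 2 and 9 the control SD was larger for only 29.5%. These 3 mice were picked because they stood apart, so leaving them out lowers the control SD by construction. No fenofibrate array was left out, so the shares do not compare the groups alike. Cyp4a14, a fatty acid hydroxylase, lay at 7.10 to 13.85 (median 11.73) in the controls and at 14.09 to 14.26 on fenofibrate, near the top of the scale, and rose by 2.89 ± 0.46 (adjusted p = 4.66e-06). Acot3 lay at 3.20 to 11.08 in the controls and at 10.41 to 12.02 on fenofibrate. Abcd2, a peroxisomal transporter, lay at 2.96 in control replicate 2 and at 6.73 or more in the other controls (1.45 ± 0.47, adjusted p = 0.0125). The leptin receptor Lepr lay at 5.28 to 10.74 and at 8.71 to 10.86 (1.53 ± 0.46, adjusted p = 0.00722), and the acute phase protein Saa2 ranged from 7.30 to 14.46 and from 5.42 to 10.33 and did not pass (-1.71 ± 0.73, adjusted p = 0.0607). Saa2 passed on leaving out fenofibrate replicate 1 (adjusted p = 0.0467) or 2 (0.031) or control replicate 3 (0.047), 4 (0.0397) or 8 (0.0454).

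Other genes were spread more widely on fenofibrate. Serpina12 ranged over more than 5 log2 units on fenofibrate, with an SD of 1.44 against 0.806 in the controls. Fabp4, the fatty acid binding protein of adipocytes and macrophages, lay at 8.05 to 9.71 and at 8.92 to 12.28 (1.28 ± 0.30, adjusted p = 8.50e-04). Slc1a2, a glutamate transporter, lay at 9.53 to 9.97 and at 7.77 to 9.55 (-0.65 ± 0.14, adjusted p = 2.44e-04). Inhbe, a subunit of activin E, spread from 6.79 to 9.02 on fenofibrate around the level of the controls and did not pass (-0.27 ± 0.21).

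Most hepatocyte markers fell by small amounts. Of 16 tested hepatocyte markers, 11 fell and 1 rose. Their median lay between -0.25 and -0.11 on all 12 fenofibrate arrays, below all 10 controls (-0.09 to 0.04), and their summed level ran from 18.11 to 18.22 in the controls and from 17.99 to 18.12 on fenofibrate. Endothelial markers had 7 of 15 lower and 1 higher (summed level 12.75 to 13.03 and 12.61 to 12.80), and stellate cell markers 6 of 13 lower and 1 higher (12.84 to 13.05 and 12.61 to 12.90). The cholangiocyte sum ran from 4.79 to 5.58 in the controls and from 8.57 to 9.92 on fenofibrate, but Krt7, Krt19, Epcam, Spp1 and Cftr, which define these cells, did not reach the filter, and the sum follows Krt23. Of 5 tested adipocyte markers, 4 rose and 1 fell, with a median of 0.84, while Adipoq, Plin1, Lep, Retn and Cfd did not reach the filter. Their summed level went the other way, from 13.73 to 14.44 in the controls and from 13.14 to 14.14 on fenofibrate. With no filter, 3 of 8 adipocyte markers rose and 1 fell, with a median of 0.39. Markers of skeletal muscle and mesothelium did not reach it at all. Of lymphocyte, neutrophil, red blood cell and pancreatic acinar markers, 1 or 2 genes each were tested. The part of a change in cell types in the results above was not tested.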

How the data were processed

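Per the submitters' processing notes, the deposited log2 values of each probe set come from GCRMA, version 2.24.1; further upstream settings are not given in the sources used here. The 45101 probe sets include 64 controls, which were left out. By the platform annotation 34945 probe sets have 1 gene symbol, 932 several and 9160 none, and 34741 symbols were updated through their gene identifiers. Probe sets with a value of at least 4 on at least 10 arrays were kept, and each of 9005 genes was read on its probe set with the highest mean. The values were fitted with limma 3.58.1 in R 4.3.3, 1 mean per diet, over all 33 arrays including 11 of a fish oil group. The fish oil arrays add to the estimate of the spread, and they also count in the filter and in the choice of probe set. Tests were two-sided with Benjamini-Hochberg adjustment. Precision is limited by how many arrays there are. Scripts were tested on simulated data.

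The comparison, the gene lists and the rule for genes named were chosen with earlier results of these data known. Named were the 10 widest gaps in each direction, the 10 largest called changes in each direction among the 300 genes brightest in control liver, up to 4 called members with the smallest adjusted p and up to 2 uncalled members with the highest control mean of each list described, and 5 genes with the largest excess of spread in each group. Alternatives changed the filter, scaling, choice of probe set, arrays, weights and blocking. Replicate numbers did not pair the mice.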

Additional observations from a re-analysis of the deposited data

Results flagged for a closer look

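Of 235 genes and list medians tested among the 10 controls, 33 had a single mouse far from the others, by Dixon's criterion on the gap over the range. Chance alone would give about 1 in 20 for independent genes. These genes and lists share mice and members, and some genes were named for their spread. No excess over that share can therefore be read from the count. Control replicate 9 was that mouse in 16 cases, replicate 1 in 11, replicate 2 in 5 and replicate 3 in 1. The fenofibrate group of 12 was not screened in this way, so single fenofibrate mice that stand apart are not listed here.

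Control replicate 9 was highest in Mogat1 (3.39, next 2.55), Vldlr (7.47, next 5.25), Cd36 (10.53, next 9.48), Cyp2b9 (9.69, next 2.71), Irf9 (8.88, next 8.17) and Gstk1 (11.97, next 11.42). It was lowest in Hsd3b5 (5.34, next 10.84), Slco1a1 (10.29, next 11.31), C8b (10.54, next 11.46), Serpina12 (10.21, next 11.71), Tram1 (11.28, next 11.52), Ssr4 (11.38, next 11.56) and Xbp1 (11.79, next 12.08). Among lists it was highest in peroxisomal beta-oxidation (0.37, next 0.06), and lowest in male-biased genes (-1.19, next -0.29) and the cytosolic ribosome (-0.17, next -0.05). Each of these genes except Irf9 deviated toward the fenofibrate arrays.

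Control replicate 1 was highest in Elovl3 (12.52), Cbs (11.64), Psmb5 (11.29), Slc16a13 (3.87) and the proteasome median (0.19), and lowest in Otc (12.22), Cyp2c50 (12.04), Cyp2d26 (13.22), Mdh1 (13.11), and the medians of the Car family (-0.79, next -0.02) and of methionine and one-carbon metabolism (-0.16). Control replicate 2 was highest in Hspe1 (12.43) and lowest in Igfbp2 (12.50), Acat1 (12.13), Abcd2 (2.96, next 6.73) and the median of coenzyme A synthesis (-0.34). Control replicate 3 was lowest in Serpina1c (14.13).

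Probe sets that the annotation does not name stand outside the comparison of genes. Of 1487 such sets past the filter, 399 were called by limma after Benjamini-Hochberg adjustment, 142 higher and 257 lower. Over all 17162 probe sets of the same fit, 6282 were called, a larger share than among the unnamed sets. In 17 of the unnamed sets all 12 fenofibrate arrays lay above all 10 controls, and in 15 all lay below.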

How the results depend on the processing

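Over 34 alternatives the count of calls stayed within 1.5 times 3676, from 3117 with consecutive label numbers as a random block to 4142 with array weights. All 3117 were also called without that block. A gene called under both settings kept its direction in all alternatives except 1 gene under the mean of all probe sets. Leaving out 1 mouse gave 3495 to 3754 calls, 1869 to 2004 higher, 1571 to 1811 lower, 251 to 276 with at least a 2-fold change, and 325 to 413 above and 168 to 232 below without overlap. Without control replicates 1, 2 and 9, an alternative chosen after seeing the data, the genes without overlap numbered 599 above and 433 below; fewer controls make overlap less likely by construction. The Mcm family median turned to -0.259 under the stricter filter, which only 2 of its genes pass. Of the 181 genes named, 171 stayed called in the same direction or stayed uncalled throughout. For uncalled genes the direction was not compared. Of the 54 list medians, 39 moved by no more than the spread between controls.

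Control and fenofibrate mice share replicate numbers, so a replicate block was fitted. It gave 3574 calls, of which 3393 were shared with the unblocked fit in the same direction. Deviations of the 10 same-numbered pairs correlated at -0.192 to 0.354 (median 0.0131), with 4 over 0.1, so the numbers are not a pairing. Values near the floor of the scale are shaped by the background model, and values near its top may be compressed, which limits folds at both ends.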
